A study of Mus musculus with 8 samples.

Results

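Type I interferon-stimulated genes are the antiviral genes that a cell switches on after it senses type I interferon. The list held 46 such genes, and 43 of them had a probe set with that symbol alone in the annotation of the array, among 22180 genes measured in this way. *Gbp2*, *Dtx3l* and *Ifi44* had none and were not analysed here. Each gene was read from its brightest probe set over 8 Affymetrix Mouse Gene 2.0 ST arrays of splenic dendritic cells (DCs). All mice had a C57BL/6 background and were 8 weeks old. WT DCs came from Lkb1f/f mice (3 arrays), whose *Lkb1* gene carries sites for Cre but is intact. Lkb1-deficient (KO) DCs came from Cd11cCreLkb1f/f mice (3 arrays), in which Cre from the *Cd11c* promoter removes *Lkb1* in DCs and in other cells that use that promoter, such as some macrophages. The Control array and the LPS array held DCs of mice labelled wild type, untreated and after LPS (bacterial lipopolysaccharide) overnight, with 1 array each. The labels give these mice as wild-type C57BL/6, whereas the study's text names Lkb1f/f mice for the LPS array, so their genotype is not settled. The sources used here do not say how many mice each array stands for, so p-values measure only the spread between arrays.

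Interferons α and β bind the receptor IFNAR on nearly every cell, and the kinases Jak1 and Tyk2 then phosphorylate Stat2. Together with Irf9 it acts at the interferon-stimulated response element (ISRE) in promoters of antiviral genes. The gamma-activated site (GAS) is the motif best known from the response to interferon γ. LPS reaches this pathway through its receptor Tlr4, whose adaptors Ticam2 and Ticam1 lead to Irf3 and to interferon β. DCs both make and answer interferon, and in them the response accompanies maturation.

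The promoters are shown first because these motifs are what the genes are known for. RefSeq promoter windows (GRCm38.p6, 250 bases before to 50 after the start) were at hand for 35 of the 46 genes. The core ISRE, GAAA, any 2 bases and GAAA again, searched on both strands, was in the windows of 18 of these 35 genes (51.4%), against 1079 of 27025 genes with a window (3.99%). The longer form, with CT after it, was in 10 (28.6%), against 0.303% of genes. The GAS, TTCNNNGAA on either strand, was in 10 (28.6%), against 9.55%, and 22 of the 35 (62.9%) held the core ISRE or the GAS, against 12.9%. Core ISREs overlapped each other in 5 genes, and a GAS overlapped an ISRE in *Ifitm3* and *Bst2*. The 7 windows below belong to the genes on which the results turn. They run 5′ to 3′ on the strand of the gene, and capitals mark each match to the core ISRE or the GAS.
Ifit1, chr19:34640639-34640938, plus strand: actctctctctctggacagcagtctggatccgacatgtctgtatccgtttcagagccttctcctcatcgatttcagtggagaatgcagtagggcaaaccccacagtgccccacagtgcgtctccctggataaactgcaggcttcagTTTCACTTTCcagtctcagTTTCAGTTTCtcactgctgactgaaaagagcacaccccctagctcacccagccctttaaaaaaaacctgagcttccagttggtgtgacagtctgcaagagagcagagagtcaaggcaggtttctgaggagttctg
Isg15, chr4:156200769-156201068, minus strand: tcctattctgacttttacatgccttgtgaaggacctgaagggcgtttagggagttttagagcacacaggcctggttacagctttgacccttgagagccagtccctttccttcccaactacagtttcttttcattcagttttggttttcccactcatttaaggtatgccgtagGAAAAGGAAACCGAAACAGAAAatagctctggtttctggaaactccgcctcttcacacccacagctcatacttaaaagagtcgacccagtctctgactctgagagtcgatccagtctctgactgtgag
Oasl1, chr5:114922990-114923289, plus strand: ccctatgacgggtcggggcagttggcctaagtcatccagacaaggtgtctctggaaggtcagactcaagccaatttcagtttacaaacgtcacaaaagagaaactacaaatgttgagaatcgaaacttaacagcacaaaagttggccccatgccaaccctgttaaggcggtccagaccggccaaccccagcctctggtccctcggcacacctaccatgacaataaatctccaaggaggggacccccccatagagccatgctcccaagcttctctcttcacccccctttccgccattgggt
Gbp5, chr3:142496684-142496983, plus strand: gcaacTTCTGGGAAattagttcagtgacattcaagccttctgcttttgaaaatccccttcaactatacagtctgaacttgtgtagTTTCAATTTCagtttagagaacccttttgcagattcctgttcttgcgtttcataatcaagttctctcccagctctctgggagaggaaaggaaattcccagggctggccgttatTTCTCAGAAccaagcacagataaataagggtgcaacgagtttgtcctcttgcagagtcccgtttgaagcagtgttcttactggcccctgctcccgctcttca
Ifitm1, chr7:140967826-140968125, plus strand: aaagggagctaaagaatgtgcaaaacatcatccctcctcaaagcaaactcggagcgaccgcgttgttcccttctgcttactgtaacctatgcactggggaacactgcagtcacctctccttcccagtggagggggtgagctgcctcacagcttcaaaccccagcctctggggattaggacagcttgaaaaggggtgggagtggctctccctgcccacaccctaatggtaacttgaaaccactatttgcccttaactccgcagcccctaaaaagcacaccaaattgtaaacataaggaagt
Ifitm2, chr7:140955912-140956211, minus strand: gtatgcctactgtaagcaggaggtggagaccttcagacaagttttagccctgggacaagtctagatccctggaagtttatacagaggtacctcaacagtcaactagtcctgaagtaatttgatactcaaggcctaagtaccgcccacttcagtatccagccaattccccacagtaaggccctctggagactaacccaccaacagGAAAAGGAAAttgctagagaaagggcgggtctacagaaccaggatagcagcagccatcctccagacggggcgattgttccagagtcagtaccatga
Ifitm3, chr7:141010695-141010994, minus strand: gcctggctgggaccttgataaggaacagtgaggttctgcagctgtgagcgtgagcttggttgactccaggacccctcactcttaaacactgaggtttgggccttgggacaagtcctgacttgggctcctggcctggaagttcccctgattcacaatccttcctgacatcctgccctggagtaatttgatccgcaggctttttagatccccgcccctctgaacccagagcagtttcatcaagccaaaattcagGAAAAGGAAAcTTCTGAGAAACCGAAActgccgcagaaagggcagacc
In *Ifit1* a pair of ISREs, read on the opposite strand, begin 104 and 85 bases before the start. *Isg15* has 3 overlapping ISREs that begin 78, 72 and 66 bases before it and form a single run of capitals. *Gbp5* has an ISRE 165 bases before the start on the opposite strand and GAS matches at 245 and 52 bases. The 3 *Ifitm* genes lie near each other on chromosome 7. *Ifitm2* has an ISRE 46 bases before its start, *Ifitm3* has a pair of ISREs just after its start with a GAS that overlaps the latter of them, and *Ifitm1* has no match. No match was found in *Oasl1* either, which says only that these letters are not in its window.

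Signal levels came as log2 values. The median over all probe sets was 4.64, 4.09 and 3.40 on WT arrays 1, 2 and 3, and 4.59, 4.07 and 3.35 on KO arrays 1, 2 and 3, so the level went with the replicate number more than with the genotype. On the Control and LPS arrays it was 4.14 each. *Stk11*, which encodes Lkb1, was 6.73, 6.83 and 5.96 on WT arrays 1, 2 and 3 and 6.67, 6.41 and 5.55 on KO arrays 1, 2 and 3, and limma's adjusted p was 1, or 0.458 once replicates were blocked. Whether its probes lie in the deleted part is not given in the sources used here, so the value does not check the labels. The DC genes *Itgax* (CD11c) and *H2-Ab1* (MHC class II) had log2 values of 8.48 to 10.46 and 11.66 to 12.90 on the WT arrays, and *Flt3*, the receptor of a DC growth factor, 8.32 to 10.41. Neutrophil markers stood apart on both arrays of replicate 3, where the summed level of 9 markers was 11.86 (WT) and 11.65 (KO) against 6.97 to 8.98 on the other arrays of these genotypes.

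In WT DCs the levels of the genes followed the array. Of the 43 genes, 40 were lowest on WT array 3, and *Isg15*, *Bst2* and *Eif2ak2* were lowest on WT array 1. The span over the 3 WT arrays was 0.28 to 3.10 on the log2 scale, with a median of 1.42. Within a replicate number the KO array followed its WT array closely. The median SD of the 3 differences was 0.16, against a median SD of 0.73 among WT arrays, and it was the smaller for all 43 genes. For this reason differences are given within each replicate number, and the test with the replicate numbers as blocks stands beside limma's unpaired test, the kind the methods name.

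Most of the genes were higher after LPS, and few differed by as much after deletion of *Lkb1*. After LPS 35 of the 43 genes were at least 1.5-fold higher than on the Control array, where 3.63% of all probe sets were, and 28 were at least 2-fold higher, where 1.63% were. None was lower by 1.5-fold, where 3.95% of all probe sets were. The median difference of the 43 genes was 1.59 on the log2 scale, or 3.01-fold, against 0 for all probe sets. There was 1 array for each condition, so these differences have no replicate check and no p-value. All 43 genes had different values on these arrays, while 18249 probe sets (54.2%) had equal ones. Of the probe sets that differed, 7.94% were at least 1.5-fold higher.

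In Lkb1-deficient DCs the median difference of the 43 genes from WT was 0.14, with 0.16, 0.02 and 0.16 for replicates 1, 2 and 3, against −0.02 for all probe sets. At least 1.5-fold higher were 4 genes, *Ifitm1*, *Gbp5*, *Ifitm2* and *Oasl1*, where 1.67% of all probe sets were, although *Oasl1* fell short without pair 1 (0.48) and *Ifitm2* without pair 3 (0.56), and none was lower by 1.5-fold, where 1.68% were. Higher in all 3 replicates were 21 genes, where 13.3% of all probe sets were, lower in all 3 were 8, where 16.9% were, and 14 were mixed. No gene passed limma's test at an adjusted p under 0.05, which 0.00967% of probe sets did, and 1 gene had an unadjusted p under 0.05, where 0.3% of probe sets were so and higher. With the methods' t-test none passed after adjustment and the same gene, *Ifitm1*, had an unadjusted p under 0.05 (background 0.193%). With the block 1 gene passed, again *Ifitm1*, where 0.206% of probe sets passed as higher. The block gave an unadjusted p under 0.05 for 11 higher and 5 lower genes, where 5.21% and 6.22% of probe sets had one.

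**Figure D1:**
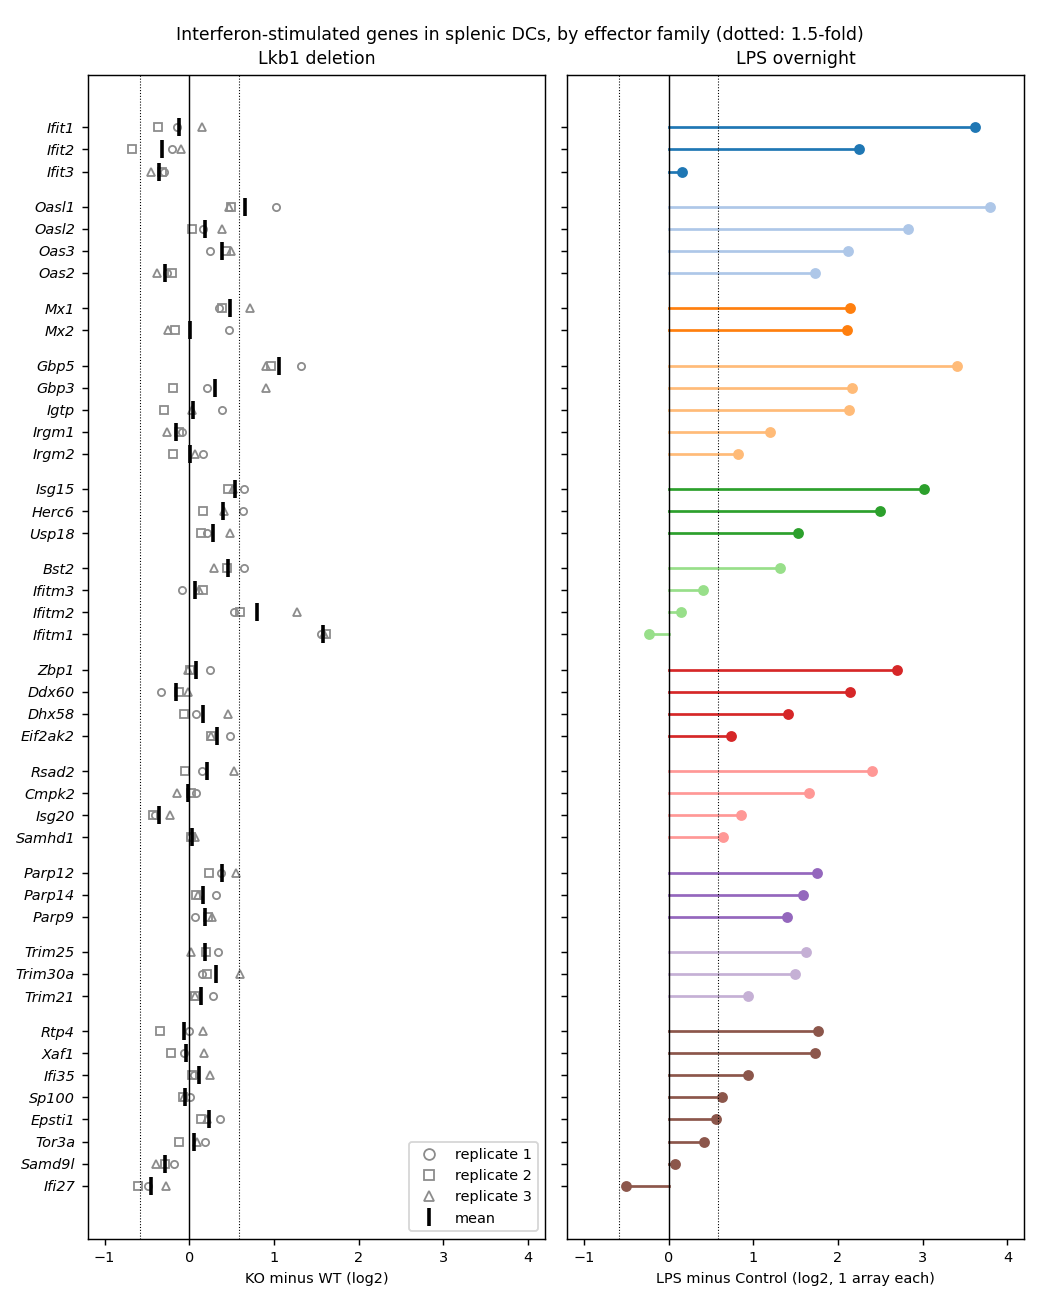
Log2 differences of the 43 genes by effector family. The left panel gives KO minus WT for replicates 1 to 3 (open symbols) and their mean (bar), the right panel LPS minus Control from 1 array each, and dotted lines mark 1.5-fold. Only *Ifitm1*, *Gbp5*, *Ifitm2* and *Oasl1* have a mean beyond the dotted line on the left, and 35 genes lie beyond it on the right.

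The IFIT proteins, which bind viral RNA, were high after LPS for *Ifit1* and *Ifit2* and not for *Ifit3*. *Ifit1* had log2 values of 6.94, 7.33 and 5.65 on WT arrays 1, 2 and 3, of 6.80, 6.95 and 5.80 on KO arrays 1, 2 and 3, and of 6.30 and 9.93 on the Control and LPS arrays. The LPS array was thus higher by 3.62, or 12.3-fold, and lay above all other arrays, while WT and KO overlapped. *Ifit2* was 5.20, 4.19 and 3.77 in WT, 4.99, 3.52 and 3.67 in KO, 4.09 in Control and 6.34 after LPS, a difference of 2.25. *Ifit3* was 6.36, 5.25 and 4.55 in WT, 6.06, 4.93 and 4.10 in KO, 4.68 in Control and 4.84 after LPS. It was the only IFIT gene within 1.5-fold after LPS (0.16), although its promoter window holds ISREs. Its KO value was below WT in each replicate, by a mean of −0.36, and did not pass (limma with the block, adjusted p = 0.310).

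Some members of the oligoadenylate synthetase family make the messenger that activates RNase L. All 4 measured genes of the family were at least 1.5-fold higher after LPS (median 2.47). *Oasl1*, which in mouse restrains translation of *Irf7*, was 6.26, 5.62 and 5.28 in WT, 7.29, 6.11 and 5.75 in KO, 5.21 in Control and 9.0 after LPS. Its LPS difference of 3.80 (13.9-fold) was the largest of the 43 genes. In KO DCs it was higher in every replicate, by 1.03, 0.49 and 0.47, yet the groups overlapped and it did not pass (limma with the block, adjusted p = 0.231). *Oasl2*, *Oas3* and *Oas2* were higher by 2.83, 2.11 and 1.73 after LPS. Their mean KO differences were 0.19, 0.39 and −0.28, so members of this family did not share a direction in KO DCs.

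Of the Mx GTPases, which trap viral nucleocapsids, *Mx1* was 5.08, 4.41 and 3.30 in WT, 5.44, 4.79 and 4.02 in KO, 5.15 in Control and 7.29 after LPS. *Mx2* had a like LPS difference, 2.11 against 2.15, and KO differences of 0.47, −0.17 and −0.25 where those of *Mx1* were 0.36, 0.38 and 0.72. Neither passed in KO DCs (*Mx1*, limma with the block, adjusted p = 0.266).

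Guanylate-binding proteins and immunity-related GTPases attack the vacuoles of intracellular microbes. All 5 measured genes were at least 1.5-fold higher after LPS (median 2.13). *Gbp5*, which promotes inflammasome assembly, was 6.39, 6.46 and 5.49 in WT, 7.70, 7.42 and 6.40 in KO, 6.52 in Control and 9.93 after LPS. The LPS difference was 3.40 (10.6-fold). In KO DCs *Gbp5* was higher by 1.31, 0.96 and 0.91, a mean of 2.09-fold, although KO array 3 lay below WT array 2. It did not pass without the block (limma, adjusted p = 1) or with it (adjusted p = 0.0806). The other 4, *Gbp3*, *Igtp*, *Irgm1* and *Irgm2*, had LPS differences of 0.82 to 2.16 and KO differences of −0.16 to 0.31, mixed between replicates except for *Irgm1*, which was lower in each.

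Conjugation of the ubiquitin-like protein ISG15 was covered by *Isg15* itself, its protease *Usp18*, which also dampens the interferon receptor, and its mouse ligase *Herc6*. *Isg15* was 4.37, 7.47 and 6.19 in WT, 5.01, 7.92 and 6.70 in KO, 6.14 in Control and 9.15 after LPS. The LPS value lay 3.02 above Control (8.09-fold) and above all other arrays. On both arrays of replicate 1 *Isg15* was far below the other replicates, unlike most genes of the list. All 3 genes were higher in KO DCs in every replicate, with means of 0.54, 0.28 and 0.40 for *Isg15*, *Usp18* and *Herc6*, and none passed (limma with the block, adjusted p = 0.185 for *Isg15*). After LPS *Usp18* and *Herc6* were higher by 1.53 and 2.50.

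**Figure D2:**
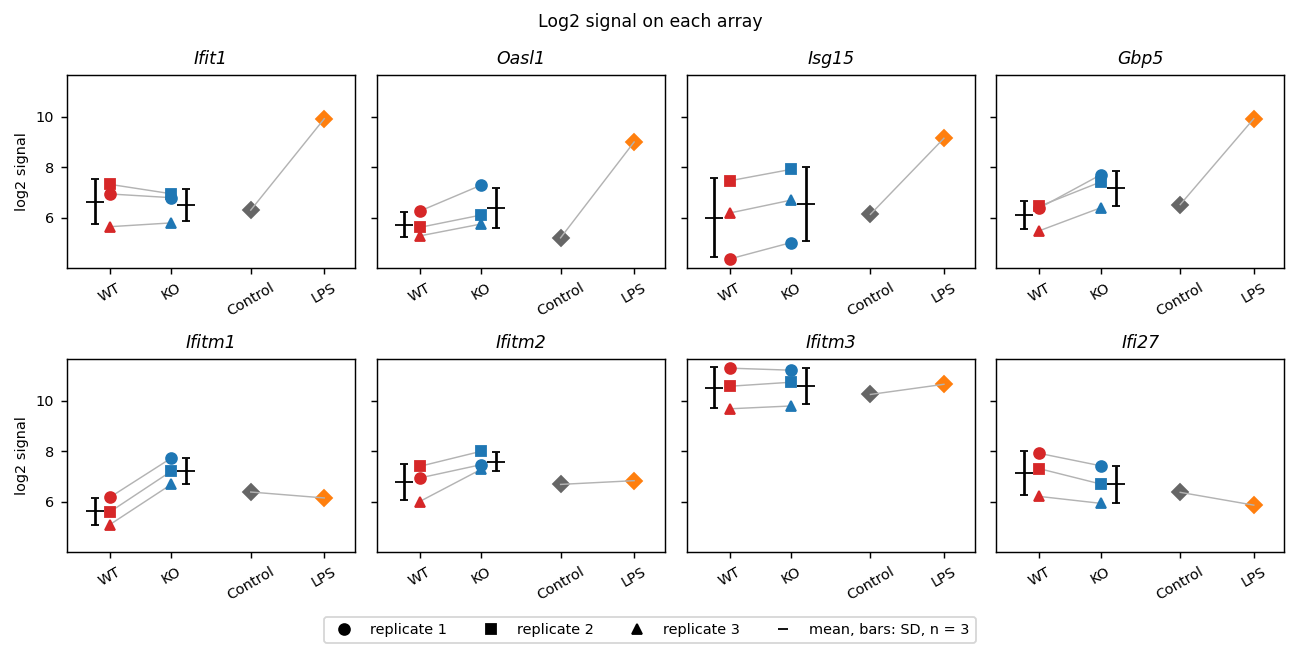
Log2 signal of 8 genes on each array. Red and blue symbols are the WT and KO arrays of replicates 1 to 3, joined within a replicate number, with the mean and SD (n = 3) beside them, and diamonds are the single Control and LPS arrays. *Ifit1*, *Oasl1*, *Isg15* and *Gbp5* were above 9 after LPS, while *Ifitm1* was higher on every KO array than on any WT array and 6.15 after LPS.

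Of the 4 restriction factors of the membrane, *Ifitm1* and *Ifitm2* were at least 1.5-fold higher in KO DCs and not after LPS. No other gene of the list had this pattern. The IFITM proteins keep viruses from fusing with the cell, and Bst2 (tetherin) holds budding virions back. *Ifitm1* was 6.18, 5.60 and 5.10 in WT, 7.73, 7.21 and 6.69 in KO, 6.39 in Control and 6.15 after LPS. Every KO array lay above every WT array, which held for no other gene of the list and for 0.38% of all probe sets in this direction. The differences of 1.55, 1.61 and 1.59 gave a mean of 1.58, or 3.00-fold. Without the block it did not pass (limma, SE 0.63, adjusted p = 1). With blocked replicates it rose (SE 0.10, limma, adjusted p = 0.0305), and over 16 alternatives the difference ran from 1.32 to 1.86 and the adjusted p from 0.0305 to 1. With pair 1, 2 or 3 left out whole the block gave 1.60, 1.57 and 1.58, with adjusted p of 0.350, 0.556 and 0.254 in limma, in fits that called no probe set. On the LPS array *Ifitm1* was lower than on Control, by −0.24.

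*Ifitm2* was 6.95, 7.41 and 6.01 in WT, 7.47, 8.00 and 7.28 in KO, 6.69 in Control and 6.84 after LPS. Its KO differences of 0.53, 0.60 and 1.27 (mean 0.80) were all positive but the groups overlapped, and it did not pass (limma with the block, adjusted p = 0.226). *Ifitm3* was 11.30, 10.58 and 9.69 in WT, 11.22, 10.74 and 9.80 in KO, 10.26 in Control and 10.66 after LPS. The KO difference was 0.06 and the LPS difference 0.40, so the 3 neighbouring genes had mean KO differences of 1.58, 0.80 and 0.06 and were all within 1.5-fold after LPS. *Bst2* was 4.61, 7.12 and 7.04 in WT, 5.25, 7.57 and 7.33 in KO, 7.33 in Control and 8.65 after LPS. It was the only one of these 4 genes to be at least 1.5-fold higher after LPS (1.32), and in KO DCs it was higher in every replicate by a mean of 0.46 (limma with the block, adjusted p = 0.272).

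*Bst2* also marks plasmacytoid DCs, the main producers of interferon α. Of the 8 measured plasmacytoid DC markers, *Bst2* among them, all 8 had a positive mean KO difference, as 18328 of 41345 probe sets did. Higher in every replicate were 13.3% of all probe sets and 5 of these markers. Their summed level was 9.35 to 9.59 on the WT arrays and 9.88 to 10.15 on the KO arrays, without overlap. *Cox6a2* had the largest difference (1.69, limma with the block, adjusted p = 0.0334), and the defining marker *Siglech* differed by 0.22. The part of these cells in the KO differences of *Bst2* and *Ifitm1* was not tested, and in bulk samples more cells of a type and more RNA per cell cannot be told apart. Most markers of CD11b+ cDC2, a splenic DC subset, moved the other way. Lower in every replicate were 7 of 10, where 16.9% of all probe sets were. Higher in every replicate were 2, *Itgam* and *Cx3cr1*, by means of 0.27 and 0.30, where 13.3% of all probe sets were. The summed levels of this list were 11.25 to 12.90 (WT) and 10.96 to 12.43 (KO). The summed levels of the other marker lists (neutrophils, erythroid cells, CD8+ cDC, pan-DC, macrophages and monocytes, and B, T and NK cells) overlapped between WT and KO arrays, as for macrophages and monocytes with 12.62 to 13.59 and 12.35 to 13.51. Within replicates 1, 2 and 3, though, 3 of these lists kept 1 sign. Macrophages and monocytes had −0.14, −0.08 and −0.26, NK cells −0.17, −0.42 and −0.61, and erythroid cells 0.43, 0.25 and 0.21. Of the 2 measured erythroid markers, *Slc4a1* had 0.78, 0.32 and 0.39, and *Klf1* was mixed with −0.11, 0.14 and −0.19. The part of these 3 lists in the KO differences was not tested.

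All 4 genes of the list for sensing nucleic acids were higher after LPS. *Zbp1*, which binds Z-form nucleic acids and can start cell death, was 7.73, 8.48 and 7.57 in WT, 7.97, 8.49 and 7.55 in KO, 7.78 in Control and 10.48 after LPS (2.70, or 6.50-fold). In KO DCs it differed by 0.08, and each KO array was within 0.24 of its WT array. *Eif2ak2*, the kinase PKR that halts translation on double-stranded RNA, was 5.92, 7.14 and 6.15 in WT, 6.40, 7.40 and 6.40 in KO, 6.96 in Control and 7.70 after LPS. It had the smallest LPS difference of the 4 (0.73) and the largest KO difference (0.33, limma with the block, adjusted p = 0.362). The helicases *Ddx60* and *Dhx58* were higher after LPS by 2.14 and 1.41 and had KO differences of −0.16 and 0.16.

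Among enzymes that act on nucleotides or RNA, *Rsad2* (viperin, which makes a chain-terminating nucleotide) was 6.73, 7.49 and 5.35 in WT, 6.88, 7.43 and 5.89 in KO, 7.03 in Control and 9.43 after LPS. *Isg20*, an RNA exonuclease, was 7.56, 7.40 and 6.07 in WT, 7.15, 6.98 and 5.83 in KO, 6.74 in Control and 7.59 after LPS. *Rsad2* was thus 2.40 higher after LPS and mixed in KO, whereas *Isg20* was 0.86 higher after LPS and lower in KO in each replicate, by a mean of −0.35 (limma with the block, adjusted p = 0.323). *Cmpk2*, a mitochondrial nucleotide kinase, and *Samhd1*, which breaks down deoxynucleotides, had KO differences of −0.02 and 0.03 and LPS differences of 1.65 and 0.64.

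The PARP and TRIM families were narrow in range. The ADP-ribosyltransferase *Parp12* was 8.14, 7.98 and 6.66 in WT, 8.51, 8.22 and 7.21 in KO, 7.58 in Control and 9.33 after LPS. With *Parp9* and *Parp14* the LPS differences were 1.40 to 1.75 and the KO differences 0.17 to 0.39, positive in every replicate for all 3. *Trim25*, a ubiquitin ligase of the RIG-I pathway, was 8.56, 8.54 and 7.27 in WT, 8.90, 8.73 and 7.29 in KO, 7.37 in Control and 8.99 after LPS. *Trim30a* was 7.03, 6.05 and 4.74 in WT, 7.18, 6.25 and 5.34 in KO, 6.38 in Control and 7.87 after LPS. Together with *Trim21*, the antibody receptor of the cytosol, these were 0.94 to 1.62 higher after LPS and 0.14 to 0.32 higher in KO, again in every replicate, and none passed in KO DCs.

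Of the remaining 8 genes, 4 were at least 1.5-fold higher after LPS. *Rtp4*, a chaperone of receptor transport, was 7.33, 7.99 and 6.55 in WT, 7.32, 7.64 and 6.71 in KO, 6.96 in Control and 8.72 after LPS. *Xaf1*, *Ifi35* and *Sp100* were also higher, by 1.73, 0.93 and 0.63. The other probe set of *Ifi35* had an LPS difference of 0.12, while the 3 others of *Sp100* had 0.60 to 0.98. *Samd9l*, a restriction factor, was 6.77, 6.55 and 6.49 in WT, 6.59, 6.26 and 6.09 in KO, 6.31 in Control and 6.39 after LPS. *Ifi27*, which encodes a small hydrophobic protein, was 7.92, 7.31 and 6.21 in WT, 7.43, 6.71 and 5.94 in KO, 6.38 in Control and 5.87 after LPS. It was the lowest of the list in both comparisons, by −0.51 after LPS and by a mean of −0.46 in KO (limma with the block, adjusted p = 0.264). *Epsti1* and *Tor3a* were within 1.5-fold in both comparisons, with 0.56 and 0.42 after LPS.

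LPS treatment and deletion of *Lkb1* were then compared gene by gene. For 40 of the 43 genes the LPS difference was above the KO difference. After LPS but not in KO DCs 33 genes were at least 1.5-fold higher, *Gbp5* and *Oasl1* were so in both, *Ifitm1* and *Ifitm2* in KO DCs only, and 6 in neither. Of all probe sets, 3.63% were at least 1.5-fold higher after LPS and 1.67% in KO DCs. These joint counts were not made over all probe sets, so they do not show whether the split is particular to the list. The difference between the effects was tested with limma on all 8 arrays, assuming that the Control and LPS arrays vary like the others (SE 1.20). No gene passed at an adjusted p under 0.05 (background 0.00297%). At an unadjusted p under 0.05, 6 genes had the larger LPS effect, where 0.146% of all probe sets did. These were *Ifit1* (3.74), *Oasl1* (3.14), *Oasl2* (2.64), *Zbp1* (2.62), *Ifit2* (2.58) and *Isg15* (2.48). For *Ifitm1* the LPS effect was smaller than the KO effect by 1.82 and did not pass in limma. After quantile normalization 23 genes had an unadjusted p under 0.05 in either direction (lowest adjusted p 0.276 in limma), where 703 of 33649 probe sets did. After median centring 20 genes did (lowest adjusted p 0.921 in limma), where 418 probe sets did. Without either step 94 probe sets did.

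That fit left out the pairing. In an alternative chosen after seeing the data, the replicate numbers were blocks and the Control and LPS arrays were a block of their own, assumed to vary as a WT and KO pair does. There 22 of the 43 genes passed (limma, SE 0.19 to 0.40), 21 with the larger LPS effect, where 0.425% of all probe sets passed, and *Ifitm1* with the larger KO effect (adjusted p = 0.0152), where 0.556% did. The lowest adjusted p in limma was that of *Ifit1* (0.0040). With 1 array each, Control and LPS add nothing to the SE, so the assumption was not tested. Their values were equal for 54.2% of probe sets, against 5.58%, 2.95% and 8.28% for WT and KO pairs 1, 2 and 3. Control and LPS were thus unlike these pairs in this respect, and the count of 22 rests on the assumption. When pair 1, 2 or 3 was left out whole, none of the 43 genes passed this blocked fit, with lowest adjusted p of 0.0572, 0.351 and 0.0508 in limma. Each time 35 genes had an unadjusted p under 0.05 in limma, counted in either direction. Of 33649 probe sets, 2132, 2240 and 2379 had one without pair 1, 2 and 3.

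**Figure D3:**
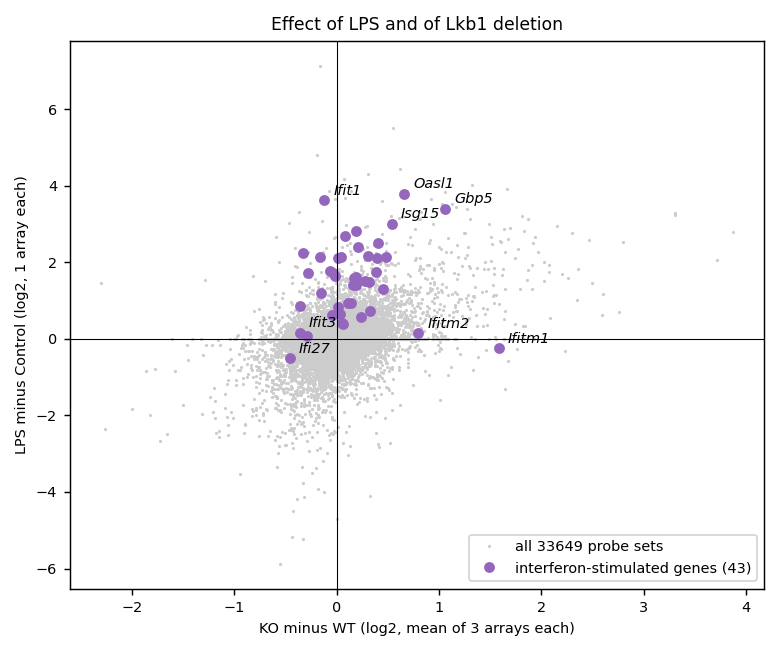
LPS minus Control against KO minus WT on the log2 scale, for 33649 probe sets with values on all arrays (grey) and the 43 interferon-stimulated genes (purple). Most of the genes lie high and near 0 on the horizontal axis, and *Ifitm1* lies apart, at 1.58 for KO and −0.24 for LPS.

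Genes with and without an ISRE overlapped in their LPS differences. Of the measured genes with a promoter window, 17 held a core ISRE, with a median LPS difference of 1.5 and 14 at least 1.5-fold higher. In 15 it was not in the window, and their median was 1.62, with 12 at least 1.5-fold higher. Median KO differences were 0.21 and 0.11. *Oasl1*, the gene with the largest LPS difference, had no match, and *Ifit3*, *Ifitm2* and *Ifitm3*, all within 1.5-fold after LPS, had ISREs.

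**Figure D4:**
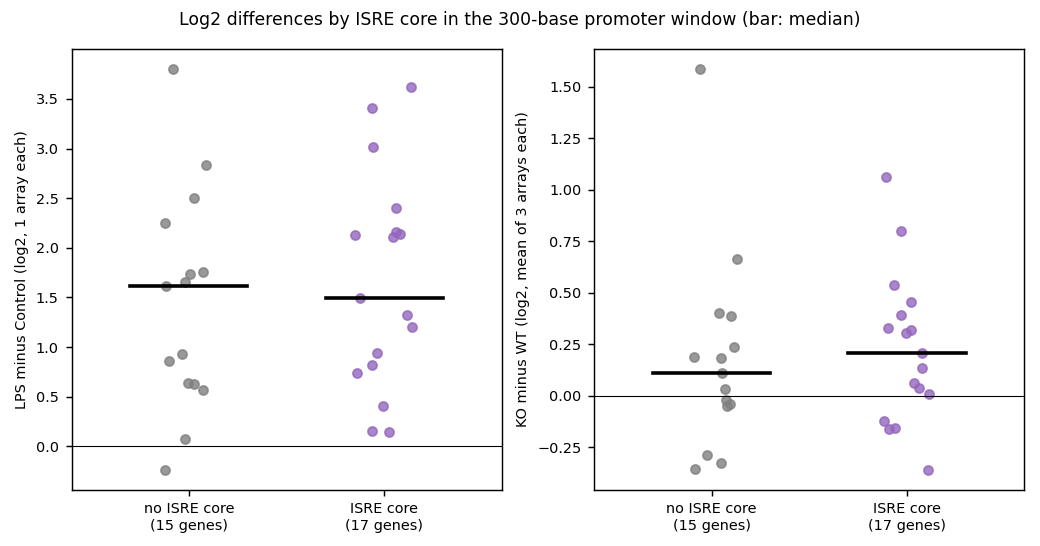
Log2 differences of genes without (15) and with (17) a core ISRE in the window of 250 bases before to 50 after the start, for LPS minus Control (left) and KO minus WT (right). Points are genes and bars are medians, 1.62 and 1.5 on the left and 0.11 and 0.21 on the right.

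The pathway around these genes was read from 55 further genes, of which 49 were measured. Most interferon ligands did not differ by 1.5-fold. *Ifnb1* was 2.50 on both the Control and the LPS array, where the median over all probe sets was 4.14. The median ligand was at 3.56 and 3.40. At such low signals a lack of difference does not show that the RNA was unchanged. On these arrays 10 of 17 ligands had equal values, as 54.2% of all probe sets did. *Ifna14* was the only ligand at least 1.5-fold higher (4.79 and 5.67). Of 9 receptors and kinases, *Ifngr1*, a chain of the interferon γ receptor, was lower after LPS (11.14 and 9.69), and *Ifnar1* and *Ifnar2* differed by −0.06 and −0.11. Several transducers were higher, with *Irf7*, which drives interferon α genes, at 8.05 and 10.49, *Stat2* at 7.65 and 9.52, and *Irf1* at 7.44 and 8.66. *Irf8*, which CD8+ cDC need, was lower, at 9.35 and 7.80. Among sensors and adaptors, the kinase *Ikbke* went from 4.80 to 7.54 and the RNA sensors *Ddx58* and *Ifih1* were higher by 1.17 and 0.92, whereas *Tlr3*, also a CD8+ cDC gene, was lower by −3.03. The feedback inhibitors *Socs3* and *Socs1* were higher by 2.29 and 1.13, *Ptpn2* by 0.88, and *Ptpn6* lower by −0.88. In all 10 of the 49 were at least 1.5-fold higher and 4 lower after LPS, where 3.63% and 3.95% of all probe sets were.

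In KO DCs the 49 pathway genes had a median difference of −0.02. None passed with or without the block, and the block gave an unadjusted p under 0.05 for 4 higher and 2 lower ones, where 5.21% and 6.22% of all probe sets had one. *Irf1* was the only one at least 1.5-fold higher, by 0.72, 0.73 and 0.51 (mean 0.65, limma with the block, adjusted p = 0.145). *Tlr7*, the sensor of single-stranded RNA, was the only one at least 1.5-fold lower, by a mean of −0.78 that ranged from −1.36 to −0.44.

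**Figure D5:**
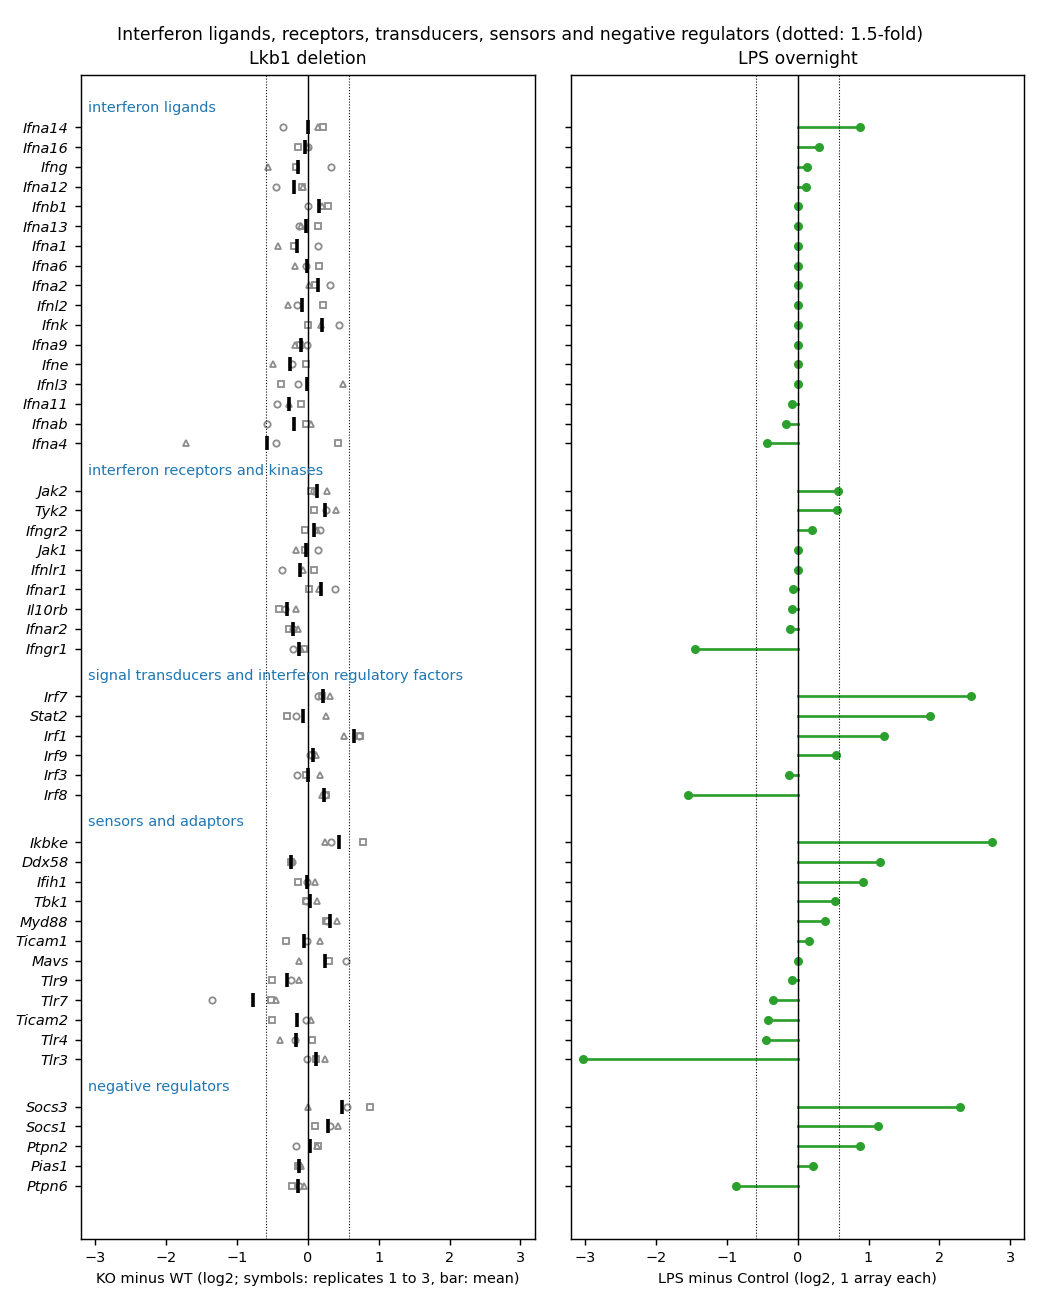
Log2 differences of 49 pathway genes by role, drawn as for the interferon-stimulated genes. KO differences (left) centre on 0, and after LPS (right) *Ikbke*, *Irf7*, *Socs3* and *Stat2* lie farthest to the right and *Tlr3* farthest to the left.

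Cell markers differed on the LPS array. Of 9 CD8+ cDC markers 7 were at least 1.5-fold lower than on Control (summed level 11.76 and 10.50), where 3.95% of all probe sets were. So were 6 of 10 CD11b+ cDC2 markers (12.05 and 11.10). *Xcr1* and *Cd209a* were lower by −3.92 and −5.87, whereas *Ly75* and *Itgam*, of the same lists, were higher by 1.97 and 1.04. Of 6 measured pan-DC markers 3 were at least 1.5-fold lower, *Itgax* by −2.73, *H2-Ab1* by −1.58 and *H2-Aa* by −1.10. *Flt3* and *Zbtb46* differed by −0.10 and −0.09, and *Dpp4* had equal values on both arrays. Plasmacytoid DC markers had a summed level of 9.45 on Control and 9.89 after LPS, and moved both ways, with *Siglech* at −1.64, *Ccr9* at −0.77, *Spib* at 1.06 and *Bst2*, itself one of the 43 genes, at 1.32. Neutrophil markers had a summed level of 7.00 and 7.62, and B cell markers 9.14 and 8.07. For pan-DC markers it was 13.92 and 12.74, for macrophages and monocytes 13.36 and 12.73, for NK cells 9.39 and 9.02, for T cells 7.39 and 7.16, and for the 2 measured erythroid markers 5.33 and 5.51. The part of these shifts in the LPS differences of the interferon-stimulated genes was not tested.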

How the data were processed

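RNA of sorted splenic DCs was hybridized to 8 Mouse Gene 2.0 ST arrays. The deposited values are log2 signals, 1 for each probe set on an array. The methods name GeneSpring and the submitters' processing notes name MAS5 without a role, while how probes were summarised and arrays normalized was not stated there. All 41345 probe sets were used as deposited, 33649 of them with values on the Control and LPS arrays, and 0 columns were left out. Symbols came from the annotation of the platform, and the probe set with the highest mean over 8 arrays stood for a gene. The genes and lists (effector families, pathway genes and cell type markers) were chosen with earlier results of these data known. Markers covered CD8+ cDC, CD11b+ cDC2, pan-DC, plasmacytoid DC, neutrophils, macrophages and monocytes, erythroid cells, and B, T and NK cells.

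KO and WT were compared with limma 3.58.1 in R 4.3.3, unpaired as in the methods, p-values being adjusted over all probe sets (Benjamini-Hochberg) with a threshold of 0.05. Limma pooled the spread fully (SE 0.63 for every probe set), so p ranks genes by size alone. An exact permutation test of 3 arrays against 3 cannot go below p = 0.1, so none is given. After removal of the genotype means, arrays of the same replicate number correlated at 0.85, 0.80 and 0.74 and others at −0.13 to −0.61, so by the threshold of 0.1 the numbers pair the arrays. This rests on the values alone, as the labels do not say so. LPS minus Control has no test, and 1.5-fold, the fold the study uses, is the limit. Values on each array are given for the member of each family with the largest LPS difference and the one with the largest absolute KO difference, and for the extremes of the list, with *Ifitm3* added after its values were seen. Pathway genes were named by the size of their LPS difference (up to 4 a list among those changed at least 1.5-fold), and *Ifnb1*, *Ifnar1*, *Ifnar2* and *Tlr7* were added after their values were seen. The scripts were tested on simulated data. The number of arrays limits the precision.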

Additional observations from a re-analysis of the deposited data

How the results depend on the processing

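The count of 35 genes higher after LPS stayed within 1.5 times under every alternative run, with 28 at the stricter 2-fold. The count of genes past the test of LPS against KO effects was 0 in each alternative without a block and 22 with the replicate block and the Control and LPS arrays as a block, falling to 0, 0 and 0 when that fit left out pair 1, 2 and 3. The median LPS difference of 1.59 became 1.48 with 16 added to the linear value. For KO minus WT, the count of 0 genes past the test became 1 (*Ifitm1*) with the replicate block and was 0 each time 1 array was left out. The count of all probe sets, 4 in the unpaired fit, was 95 with the block, 2 after quantile normalization, and 0 with median centring, with 16 added to the linear value and with the methods' t-test. When a whole pair was left out of the blocked fit, alternatives chosen after seeing the data, it was 0, 0 and 0 without pair 1, 2 and 3. Without 1 array it ran from 0 to 10. The median KO difference of the 43 genes, 0.14, was 0.047 when the blocked fit left pair 3 out. Without 1 array it ran from −0.27 (without WT replicate 3) to 0.46 (without KO replicate 3), where the median of all probe sets moved to −0.35 and 0.31, because the partner of the array that was left out remained. In such fits *Ifit3* ran from −0.88 to 0.13, *Isg20* from −0.82 to 0.056 and *Ifit2* from −0.79 to 0.078, with *Ifit3* at 0.13 without WT replicate 1 and 0.11 without KO replicate 3. *Oasl1* was within 1.5-fold without pair 1 (0.48), WT replicate 3 (0.44) or KO replicate 1 (0.21) and with 16 added to the linear value (0.54), and *Ifitm2* without pair 3 (0.56) or WT replicate 3 (0.41). The block changed no other KO call among the 43 genes.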
